A study of Homo sapiens with 16 samples.

Results

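The genes described here are 9 that serve the cell's defence against oxidants and its supply of NADPH. They are the NRF2 target genes NQO1, HMOX1, GCLC, GCLM, TXNRD1 and SRXN1, and the pentose phosphate pathway genes PGD, TKT and TALDO1. All probes of the deposited table whose symbol is one of these names were taken. This gave 11 of 24526 probes and 9 of 18631 symbols, with 2 probes each for NQO1 and TXNRD1 and 1 for each other gene. The samples were 16 parallel cultures of SUM-225, a human breast cancer cell line with HER2 amplification and over expression. The labels give a medium with serum, insulin and hydrocortisone. The study's methods instead describe medium without EGF or insulin for this line, and its figure legends place the line in serum-free conditions. The sources used here do not settle which medium applied. Each received 1 µM CP724,714, a small molecule inhibitor of the HER2 kinase, and was harvested at 1 time between 0 and 45 h, with 3 h between harvests. The 0 h culture was the only one not exposed to the inhibitor for any length of time, and without a course of untreated cells, time in culture and time in the inhibitor cannot be told apart. There was 1 array per time point and no replicate, so each error below is a standard error (SE) of a course fitted over the 16 arrays.

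NRF2 is a transcription factor that is held in the cytoplasm and handed to the proteasome by KEAP1. When KEAP1 is modified by oxidants or electrophiles, NRF2 accumulates, pairs with a small MAF protein and binds antioxidant response elements near its target genes. These genes make glutathione, reduce thioredoxin and oxidised peroxiredoxins, and clear quinones and heme. Most of these reactions draw on NADPH, which the oxidative branch of the pentose phosphate pathway supplies, while the non-oxidative branch exchanges sugar carbons between ribose and glycolysis. NRF2 is active in many carcinomas, and both groups of genes are known to be raised there.

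Values are signal intensities after background correction and quantile normalization, on a log2 scale. A cubic course in hours was fitted to each of the 16110 probes that passed a detection filter. Its F-test defined time dependence, its first-order term gave the linear change over 45 h, and adjusted p-values are those of limma over all probes tested. All 11 probes passed the filter. All but GCLC were detected on the 16 arrays, and GCLC was detected on 7 (0, 3, 18, 27, 36, 42 and 45 h).

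Of the 9 genes, each read at its probe with the highest mean, HMOX1 and TALDO1 rose with time, TXNRD1 fell, and the other 6 had no linear trend past the threshold at that probe. A linear trend was thus found for 3 of 9 genes (33.3%), against 49.0% of all genes read the same way (47.7% of all probes). The 2 rising genes stand against 27.0% of genes that rose (26.0% of probes), and the 1 falling gene against 22.0% that fell (21.7% of probes). Time dependence was found for 4 genes (44.4%), namely HMOX1, TXNRD1, TKT and TALDO1, against a background of 52.8% of genes (51.3% of probes). The median linear change of the 9 genes was 0.036 log2 units, against 0.050 over all probes. HMOX1, which encodes the heme oxygenase that opens the heme ring, was the only one whose change reached 1 log2 unit. These counts read NQO1 at a probe near the top of the scale. Where any probe of a gene could make the call, 4 genes had a linear trend and 5 were time-dependent. NQO1 was the one added to both, through its dimmer probe. The share of all genes under this rule was not computed, so the shares above do not apply to these counts. Over the 36 pairs of genes the Pearson r of the 16 log2 values lay between -0.69 (SRXN1 with TALDO1) and 0.65 (HMOX1 with TALDO1), as a description of values that share the same arrays.

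**Figure D1:**
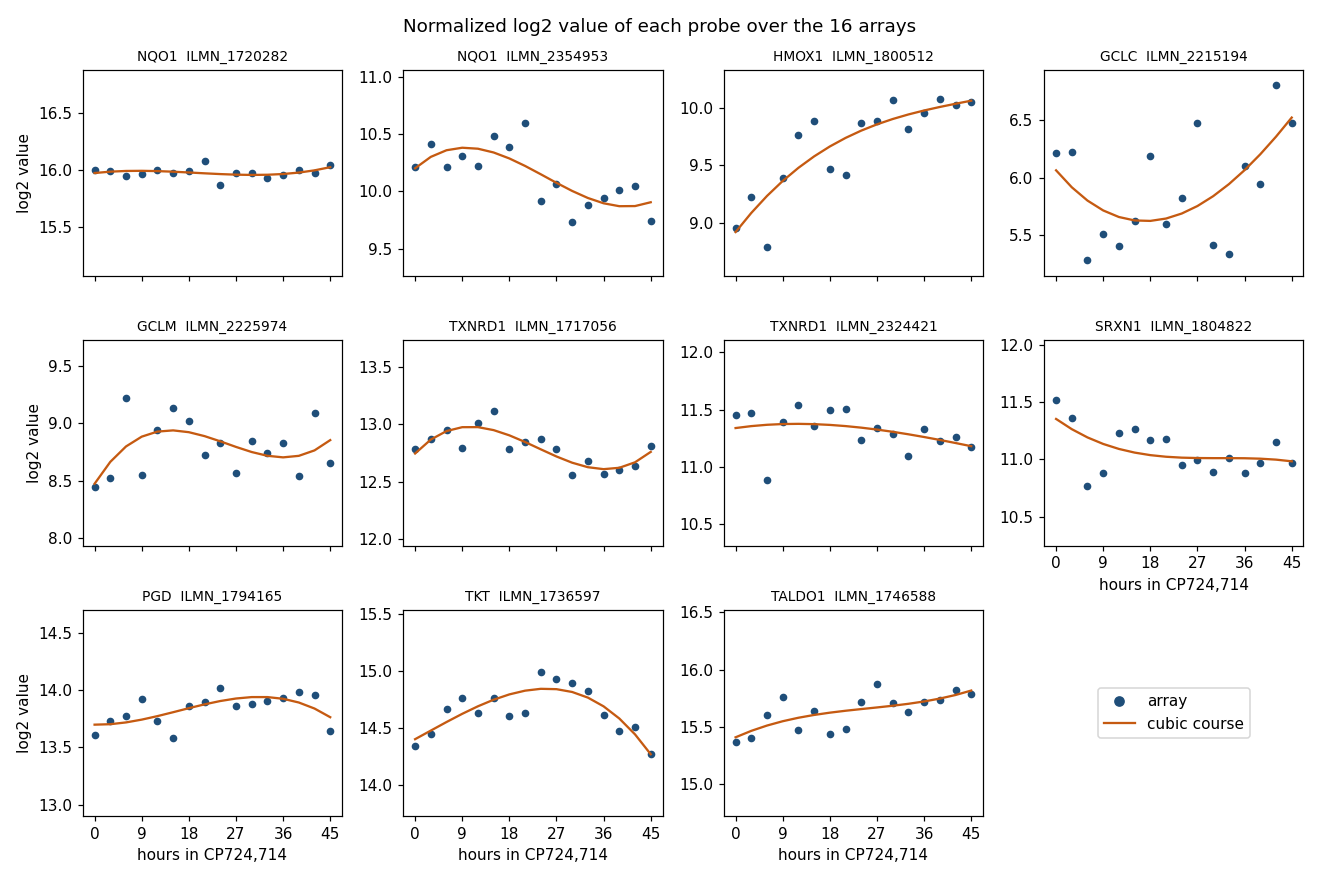
Normalized log2 value (y axis, 1.8 log2 units in every panel) against hours in CP724,714 (x axis) for the 11 probes. Points are single arrays and lines are the fitted cubic courses. HMOX1 climbed from 8.95 at 0 h to 10.05 at 45 h, TKT was highest at 24 h, and the brighter NQO1 probe stayed between 15.87 and 16.08.

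The arrays had a median signal between 242 and 384, and between 57.5% and 61.5% of probes were detected. Markers of the labelled cells were present, with ERBB2, GRB7, KRT8, KRT18, KRT19, CDH1 and TACSTD1 (EPCAM) detected on all 16 arrays. Of the markers of other cell types, VIM, PDGFRB and PTPRC were detected on 0 arrays, COL1A1 and COL1A2 on 5 each, and PECAM1 on 16 with signals of 282 to 518. The arrays were also grouped into sets of 4 consecutive time points, which begin at 0, 12, 24 and 36 h. This grouping was taken from these same data, is not named by any label and was not itself tested. With the set as a factor, none of the 9 genes had a linear trend past the threshold, against 0.900% of all probes. A set covers 9 h only, so the errors of this fit are wide.

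The promoter windows were searched for the antioxidant response element, through which NRF2 acts. RefSeq windows of GRCh38.p14, from 250 bases before to 50 bases after a gene's start, were found for 8 of the 9 genes, with 2 windows for TXNRD1. HMOX1 was not matched. The element core TGACNNNGC was searched on both strands, and 4 of the 9 windows held it, against 13.3% of all 35116 windows. These windows belong to 3 of the 8 genes, as TXNRD1 gave 2 of them, and the difference in share was not tested. The AP-1 site TGANTCA, which can share its letters with the core, was in none of the 9 and in 7.71% of all windows. The 5 matches are shown with 20 bases on each side, written 5′ to 3′ along the gene's strand, with the matched letters in capitals. Where the match lies on the opposite strand the capitals read GCNNNGTCA.
GCLM, chr1:93909436-93909484, minus strand, opposite match: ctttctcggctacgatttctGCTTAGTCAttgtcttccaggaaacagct
TXNRD1 first window, chr12:104215660-104215708, plus strand, same-strand match: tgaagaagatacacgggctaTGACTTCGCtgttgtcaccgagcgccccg
TXNRD1 first window, chr12:104215751-104215799, plus strand, opposite match: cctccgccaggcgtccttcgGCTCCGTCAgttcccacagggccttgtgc
TXNRD1 second window, chr12:104286910-104286958, plus strand, opposite match: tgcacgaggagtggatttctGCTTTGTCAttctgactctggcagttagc
PGD, chr1:10398843-10398891, plus strand, opposite match: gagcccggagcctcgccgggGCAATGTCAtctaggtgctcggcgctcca

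The capitals begin 34 bases before the start of GCLM, 99 and 8 bases before the first start of TXNRD1, 102 bases before its second start and 201 bases before the start of PGD. Of these 3 genes TXNRD1 had a linear trend past the threshold, downwards and at its brighter probe only, and GCLM and PGD had none past it. The windows of NQO1, GCLC, SRXN1, TKT and TALDO1 did not hold these letters, which says nothing of elements farther from the start.

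Among the detoxifying enzymes, HMOX1 showed the largest change of the group. At 0, 3, 6 and 9 h its log2 value was 8.95, 9.22, 8.79 and 9.39. It was 9.77, 9.89, 9.47 and 9.41 from 12 to 21 h, then 9.87, 9.89, 10.08 and 9.82 from 24 to 33 h, and 9.96, 10.08, 10.03 and 10.05 from 36 to 45 h. The array at 6 h was below the one at 0 h and the other 14 were above it, and the mean of each set of 4 arrays was higher than that of the set before. The signal at 45 h was 2.14-fold that at 0 h after normalization. The linear change was 1.09 ± 0.17 (SE) log2 units (limma, adjusted p = 2.08e-05), with a 95% interval of 0.74 to 1.43, and the departure from a straight line was not past the threshold (adjusted p = 0.351). It stayed past the threshold with each array left out in turn, between 0.95 and 1.15. The widest step was the rise of 0.60 between 6 and 9 h. Allowing a step from 21 to 24 h left a change of 0.66 (adjusted p = 0.291). Time dependence (F-test, adjusted p = 0.000144) was also lost with the step allowed (0.0507). Within the sets of 4 arrays the linear change was -0.13 ± 0.62 (SE, adjusted p = 0.952). This error is wide enough to hold both 0 and the value over all arrays within 2 SE.

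NQO1, a quinone reductase that uses NADH or NADPH, was measured by a pair of probes, of which one lies near the top of the scale. The brighter probe (ILMN_1720282) had signals of 57607 to 69856, which were 78.9% to 97.3% of the brightest probe on the same array. Its log2 value ranged over 1.15-fold in all, and its linear change was 0.0018 ± 0.05 (SE) with a 95% interval of -0.10 to 0.10 (adjusted p = 0.978). Time dependence was not found (adjusted p = 0.751), except under median scaling (adjusted p = 0.0325) and cyclic loess (adjusted p = 0.0486). Its widest step was -0.21, from its highest value at 21 h (16.08) to its lowest at 24 h (15.87). So close to the top of the scale, a signal need not follow the transcript. The dimmer probe (ILMN_2354953) had signals of 812 to 2307, at 1.13% to 3.21% of the array maximum. Its log2 values were 10.21, 10.41, 10.22 and 10.31 from 0 to 9 h, and 10.22, 10.48, 10.39 and 10.60 from 12 to 21 h. They were then 9.91, 10.07, 9.73 and 9.88 from 24 to 33 h, and 9.94, 10.01, 10.05 and 9.74 from 36 to 45 h. All 8 arrays from 24 h onward were below all 8 before it. This probe fell by 0.56 ± 0.15 (SE) log2 units over 45 h (limma, adjusted p = 0.00401), and its widest step, -0.69, was likewise that from 21 to 24 h. When a step was allowed there, the remaining linear change was 0.44 and not past the threshold (adjusted p = 0.307), and within the sets it was 0.058 ± 0.49 (SE). Time dependence of the dimmer probe (F-test, adjusted p = 0.0127) was also lost with the step allowed (0.386). No probe sequence was in the table, so the transcripts each probe reads were not compared.

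**Figure D2:**
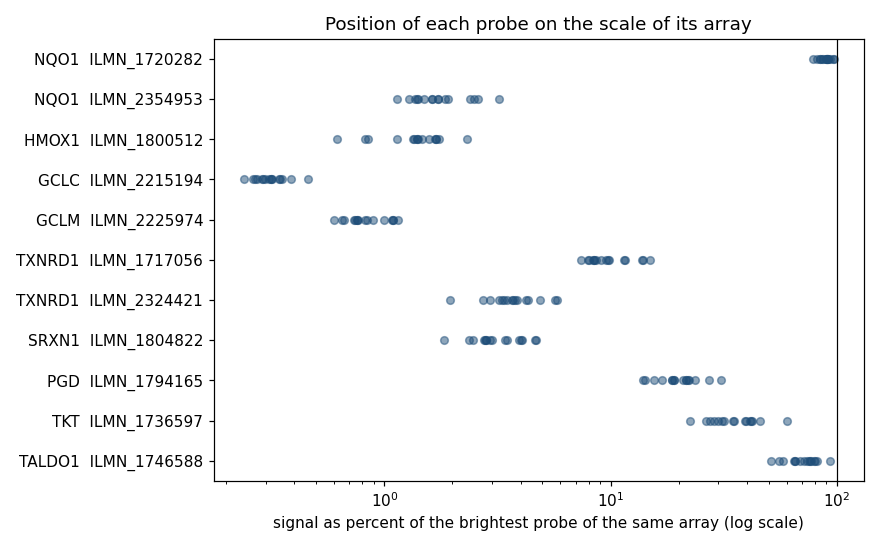
Signal of each probe as a percent of the brightest probe on the same array (x axis, log scale), with 1 point per array and 1 row per probe. The brighter NQO1 probe sits at 78.9% to 97.3% and TALDO1 at 51.1% to 93.1%, close to the line that marks the brightest probe, while GCLC sits at 0.457% or lower.

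The subunits of glutamate-cysteine ligase, which makes the first peptide bond of glutathione, had no trend past the threshold. GCLC is the catalytic subunit and GCLM the modifier that raises its activity. GCLM had its lowest log2 value at 0 h (8.44) and its highest at 6 h (9.22), with a median of 8.78, and all 15 later arrays were above the first. The values at 3 and 9 h, on either side of the peak, were 8.52 and 8.55. Its linear change was 0.036 ± 0.17 (SE, 95% interval -0.33 to 0.40, adjusted p = 0.883), and time dependence was not found (adjusted p = 0.292). GCLC lay between 5.28 at 6 h and 6.81 at 42 h, with a median of 5.88 and signals of no more than 332, near the background. Its linear change was 0.52 ± 0.32 (SE, 95% interval -0.15 to 1.20, adjusted p = 0.193). The residual SD of GCLC, 0.43 log2 units, was the widest of the group, and a change of 1 log2 unit lies inside its interval.

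In the thioredoxin branch, TXNRD1, the selenoprotein that reduces thioredoxin with NADPH, fell on its brighter probe (ILMN_1717056). Its log2 values were 12.78, 12.87, 12.96 and 12.79 from 0 to 9 h and 13.01, 13.12, 12.78 and 12.85 from 12 to 21 h. They were 12.87, 12.78, 12.56 and 12.68 from 24 to 33 h and 12.56, 12.60, 12.64 and 12.81 from 36 to 45 h. The course thus peaked at 15 h, was lowest at 30 and 36 h and stood at 12.81 at 45 h, against 12.78 at 0 h. The linear change was -0.30 ± 0.08 (SE, limma adjusted p = 0.00584, 95% interval -0.48 to -0.13), and time dependence had an adjusted p of 0.00326. With a step from 21 to 24 h allowed, both calls were lost (linear change -0.44, adjusted p = 0.172, time dependence 0.103). Curvature was only just called (adjusted p = 0.0497), and this call was lost when any 1 of 14 arrays was left out and kept without the array at 9 h (0.0148) or 18 h (0.0397). The dimmer probe (ILMN_2324421) lay between 10.88 at 6 h and 11.54 at 12 h and changed by -0.17 ± 0.13 (SE, adjusted p = 0.306). Without the 6 h array its change was -0.32 (adjusted p = 0.0106). The TXNRD1 promoter windows are those shown above with 3 matches to the element core.

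SRXN1 encodes sulfiredoxin, which restores overoxidised peroxiredoxins. It was highest at 0 h (11.52), 11.36 at 3 h and lowest at 6 h (10.77), and then stood between 10.88 and 11.27. All 15 later arrays were below the first. The linear change was -0.29 ± 0.14 (SE, 95% interval -0.59 to 0.01, adjusted p = 0.105) and time dependence was not found by the cubic course (adjusted p = 0.230). A natural spline with 5 degrees of freedom, which can follow an early drop more closely, gave an adjusted p of 0.0138. Without the 0 h array the linear change was -0.16 (adjusted p = 0.415) and without the 3 h array -0.23 (adjusted p = 0.252). Without the 6 h array it was -0.41 (adjusted p = 0.00987), and without the 9 h array -0.35 (adjusted p = 0.0449). The 6 h array was the lowest of the course for HMOX1, GCLC, SRXN1 and the dimmer TXNRD1 probe and the highest for GCLM. Its median signal of 242 was also the lowest of the 16 arrays, and the part of this in those values was not tested.

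**Figure D3:**
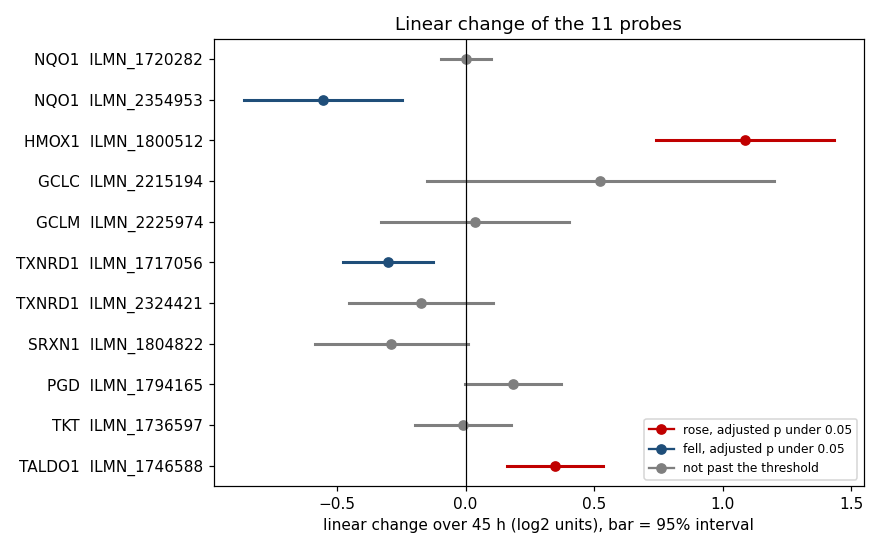
Linear change over 45 h in log2 units (x axis) for the 11 probes (y axis). Points are estimates, bars are 95% intervals of the limma fit, and colour marks the call. The interval of HMOX1 lies wholly above 0.74, those of the brighter TXNRD1 and dimmer NQO1 probes lie below 0, and those of 7 probes include 0.

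The pentose phosphate genes lie in sequence along the pathway. PGD, phosphogluconate dehydrogenase, releases carbon dioxide and yields the second NADPH of the oxidative branch. Its log2 value was 13.61 at 0 h, lowest at 15 h (13.58), highest at 24 h (14.02) and 13.64 at 45 h. Of the 15 later arrays, 14 were above the first. The linear change was 0.19 ± 0.09 (SE, 95% interval -0.00096 to 0.37) with an adjusted p of 0.0949. It passed when the 9 h array (0.22, adjusted p = 0.0392) or the 45 h array (0.31, adjusted p = 0.00899) was left out and with array weights (0.25, adjusted p = 0.0154). Time dependence by the F-test of the cubic was not found (adjusted p = 0.0809). It passed with array weights (0.0406) and without the 9 h (0.0254) or the 15 h array (0.0445). Both calls therefore turned on single arrays.

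TKT, transketolase, moves carbon pairs between sugars in the non-oxidative branch and had an arched course, with the smallest p for curvature of the 9 genes. From 0 to 9 h its log2 values were 14.35, 14.45, 14.66 and 14.76, and from 12 to 21 h they were 14.63, 14.76, 14.61 and 14.63. From 24 to 33 h they were 14.99, 14.93, 14.89 and 14.82, the 4 highest of the course, and from 36 to 45 h they were 14.62, 14.47, 14.51 and 14.27. The lowest value was that at 45 h, and the highest and lowest differed by 1.65-fold. The linear change was -0.0099 ± 0.09 (SE, adjusted p = 0.937), while time dependence (limma, adjusted p = 0.000362) and curvature (adjusted p = 0.00113) were past the threshold, curvature against 20.3% of genes (19.3% of probes). Both remained past it under every alternative in which they were recomputed, up to 0.00988 for time dependence and 0.0188 for curvature. The widest step was again that from 21 to 24 h, a rise of 0.36. Allowing a step there gave a linear change of -0.68 (adjusted p = 0.00454).

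TALDO1, transaldolase, moves carbon triplets in the same branch. From 0 to 9 h its log2 values were 15.37, 15.40, 15.60 and 15.76, and from 12 to 21 h they were 15.47, 15.64, 15.44 and 15.48. From 24 to 33 h they were 15.72, 15.88, 15.70 and 15.63, and from 36 to 45 h they were 15.72, 15.73, 15.82 and 15.79. All 15 later arrays were above the first, and the normalized signal at 45 h was 1.34-fold that at 0 h. TALDO1 rose by 0.35 ± 0.09 (SE) log2 units over 45 h (limma, adjusted p = 0.0033, 95% interval 0.16 to 0.54). The rise was 0.24 under median scaling and no longer past the threshold (adjusted p = 0.112), and -0.21 where a step from 21 to 24 h was allowed (adjusted p = 0.454). Time dependence (adjusted p = 0.0201) was lost under median scaling (0.248), with the step allowed (0.121), without the 0 h array (0.0866) and without the 3 h array (0.0685). Raw signals reached 67745 at 27 h, 93.1% of the array maximum, and a probe so near the top can understate a rise.

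By likeness of course, the genes closest to HMOX1 were MANBAL (Pearson r = 0.96 over the 16 arrays) and C10orf54 (0.95), and those closest to TALDO1 were DNAJB12 (0.94) and BCMO1 (0.92). NOL1 (0.92) and RSL1D1 (0.90) were closest to SRXN1, and LTBP4 (0.91) and UBE1C (0.87) to PGD. For TKT they were DKFZp547C195 (0.89) and BFSP1 (0.88), for TXNRD1 BAP1 (0.88) and RPN2 (0.87), and for the brighter NQO1 probe MFAP1 (0.90) and CADPS2 (0.87). GCLC was closest to NCK2 (0.86) and STIM2 (0.84), and GCLM to ZADH1 (0.77) and PHKB (0.76). None of the 9 genes was among the 2 closest of another. The genes named here were picked for the highest r among all probes detected on all 16 arrays, and 47.7% of all probes had a linear trend. A high r arises partly from this selection, so these values are descriptions only. Those of the brighter NQO1 probe rest on a range of 1.15-fold.

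The other genes of these pathways were taken as 6 lists with 88 genes. Of these, 81 were tested at their brightest probe, 25 rose and 24 fell, so that 60.5% had a linear trend against 49.0% of all genes. Their median change was -0.03 log2 units against 0.050 over all probes. With a step from 21 to 24 h allowed, 25 of the 81 genes had a linear trend, against 3092 of all 16110 probes. The lists were chosen with earlier results of these data known, so this share and those of the single lists below are descriptions only.

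Among the regulators, 8 were tested, 3 rose and 1 fell (4 of 8 called, against 49.0% of all genes). NFE2L2, which encodes NRF2, was 12.34 at 0 h, highest at 18 h (12.86), still 12.86 at 36 h and 12.61 at 45 h. By the linear term it rose by 0.29 ± 0.08 (SE, limma adjusted p = 0.00667). Its curvature was also past the threshold (F-test, adjusted p = 0.00843). KEAP1 rose by 0.30 ± 0.11 (adjusted p = 0.0263). NFE2L1, an NRF2 relative that controls proteasome genes, rose most, by 0.81 ± 0.12. The small MAF gene MAFF fell by 0.42 ± 0.14 (adjusted p = 0.0217). BACH1, a repressor that competes with NRF2 at HMOX1, changed by -0.25 ± 0.16 (adjusted p = 0.222). The calls of NFE2L2 and MAFF were lost without the 0 h array (0.21, adjusted p = 0.0628, and -0.32, adjusted p = 0.117) or the 3 h array (0.21, adjusted p = 0.0687, and -0.29, adjusted p = 0.118). That of KEAP1 was lost without the array at 0 h (0.22, adjusted p = 0.0842), 39 h (0.26, adjusted p = 0.0641) or 42 h (0.27, adjusted p = 0.0563). The call of NFE2L2 was also lost with a straight line as the only term (adjusted p = 0.061), and that of KEAP1 under cyclic loess (0.24, adjusted p = 0.0834). Over 10 alternatives other than leaving arrays out, NFE2L1 changed by 0.32 to 1.01 and kept its call under 8. MAFF likewise kept its call under 8, and NFE2L2 and KEAP1 under 7 each.

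Of 25 glutathione genes tested, 10 rose and 8 fell (72.0%, against 49.0% of all genes). GSTM3, a glutathione transferase, rose by 1.72 ± 0.12 log2 units and GPX2, a glutathione peroxidase, by 1.20 ± 0.32. ABCC3, an efflux pump for glutathione and glucuronide conjugates, fell by 2.48 ± 0.15. SLC7A11, the cystine importer, fell by 1.45 ± 0.38 with detection on 11 arrays. With a step from 21 to 24 h allowed, the direction of GPX2 (-0.63, adjusted p = 0.571) and of SLC7A11 (0.28, adjusted p = 0.871) turned and neither was called. Without the step the adjusted p lay between 1.78e-10 for ABCC3 and 0.0041 for GPX2. The GSTM genes are close paralogs and their probes may share transcripts.

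Of 12 thioredoxin and peroxiredoxin genes, 3 rose and 2 fell (41.7%, against 49.0% of all genes). TXNIP, which binds and inhibits thioredoxin, rose by 0.93 ± 0.11 and the mitochondrial reductase TXNRD2 by 0.81 ± 0.16, while the cytosolic TXNRD1 fell, as given above. PRDX4, the peroxiredoxin of the endoplasmic reticulum, fell by 0.92 ± 0.09. TXN, thioredoxin itself, fell by 0.17 ± 0.06, a call that was lost without the 9 h array (-0.13, adjusted p = 0.0533) or with a straight line as the only term (adjusted p = 0.0603). Over 10 alternatives other than leaving arrays out, TXNRD2 changed by 0.15 to 0.84 and kept its call under 8. TXNIP and PRDX4 kept theirs under 9 each, and TXN under 7.

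Of 16 detoxification, heme and iron genes, 2 rose and 8 fell (62.5%, against 49.0% of all genes, of which 27.0% rose and 22.0% fell). AKR1B10, an aldo-keto reductase that is a known NRF2 target, fell by 2.54 ± 0.25 log2 units (adjusted p = 9.78e-08). AKR1C2, another, fell by 1.36 ± 0.08 (adjusted p = 2.63e-10). AKR1C2 has near-identical paralogs, and AKR1C1 was detected on 0 arrays and not tested. AKR1A1, a further aldo-keto reductase, rose by 0.60 ± 0.10 and FTL, the ferritin light chain that stores the iron heme oxygenase frees, by 0.23 ± 0.05. The FTL signal was at least 65.8% of the array maximum, so that its change may be understated. The rise of FTL was not past the threshold under median scaling (0.16, adjusted p = 0.377) or without the 0 h array (0.15, adjusted p = 0.0527). Over 10 alternatives other than leaving arrays out, AKR1A1 changed by 0.073 to 1.05 and kept its call under 8. AKR1B10 and AKR1C2 kept theirs under 9 each, and FTL under 7. HMOX1 and the aldo-keto reductases AKR1B10 and AKR1C2 thus changed in opposite directions.

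Of 4 superoxide and peroxide genes, 1 rose (25.0%, against 49.0% called among all genes), CAT (catalase), by 0.56 ± 0.10. Over 10 alternatives other than leaving arrays out, CAT changed by 0.075 to 0.58 and kept its call under 8. Of 16 further pentose phosphate and NADPH genes, 6 rose and 5 fell (68.8%, against 49.0% of all genes). RPIA, ribose phosphate isomerase of the non-oxidative branch, rose by 1.19 ± 0.13 log2 units (adjusted p = 5.45e-07). NNT, the mitochondrial transhydrogenase that makes NADPH from NADH, rose by 2.17 ± 0.21. Its probe was dim, at 0.304% to 0.845% of the array maximum. Over 10 alternatives other than leaving arrays out, NNT changed by 1.08 to 2.17 and kept its call under 9. ME1 and ME3 encode malic enzymes, which make NADPH from malate. ME1 fell by 0.94 ± 0.09 and ME3 fell by 1.29 ± 0.20. Under the same 10 alternatives the call of ME3 held in 8 and those of ME1 and RPIA in 9 each.

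**Figure D4:**
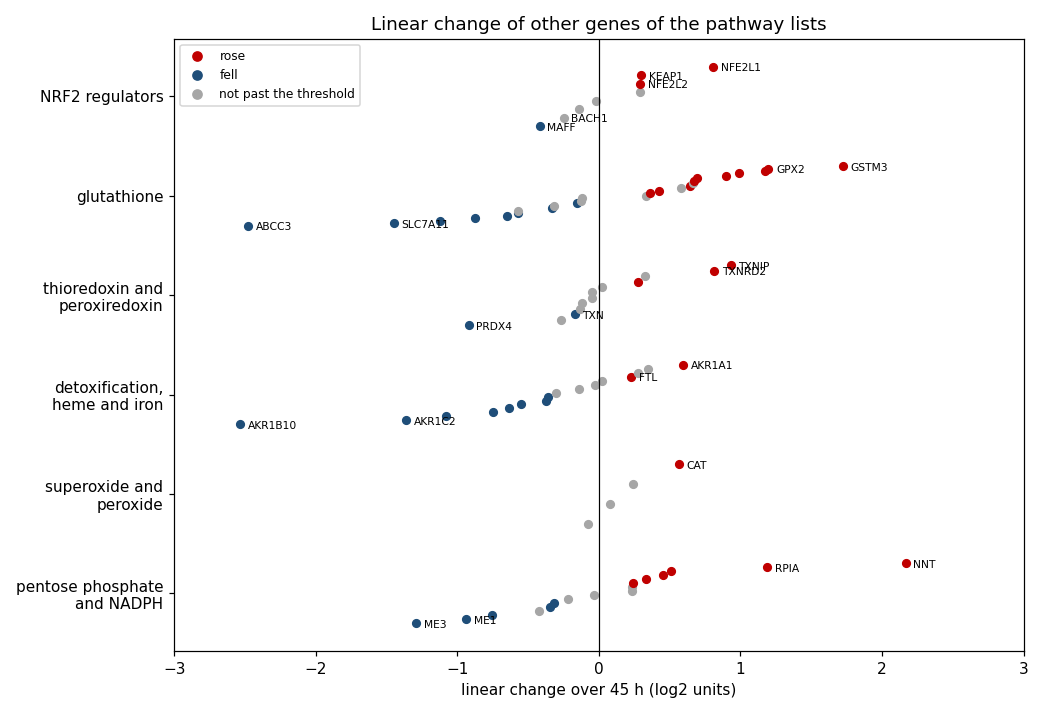
Linear change over 45 h in log2 units (x axis) of 81 other genes in 6 pathway lists (y axis), 1 point per gene at its brightest probe, spread vertically within a list by rank. Red points rose, blue fell and grey were not past the threshold. The points reach from -2.54 (AKR1B10) to 2.17 (NNT), while the 9 genes of the report lie between -0.30 and 1.09.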

How the data were processed

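RNA from the 16 cultures was turned into biotin-labelled cRNA and read on Illumina bead arrays. The values deposited by the authors are linear signal intensities without background subtraction or normalization, and the deposited table pairs each with a detection p-value. Scanning software and genome build are not given in the sources used here. All columns of the table were used, and samples were grouped by the time in their labels.

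Background correction (normexp, offset 16, with negative controls inferred from the detection p-values), quantile normalization and log2 transformation were done by the function neqc of limma 3.58.1 under R 4.3.3. The offset shrinks the fold changes of dim signals. To be tested, a probe needed a detection p under 0.05 on 3 or more arrays. A cubic in hours was fitted with lmFit and eBayes (intensity trend), and p-values were Benjamini-Hochberg adjusted across the 16110 probes, with a threshold of 0.05. On simulated data for these 16110 probes the linear term recovered 76.5% of 200 changes of 1 log2 unit, and 6.13% of its calls were false. Only those 200 probes changed there, whereas 7685 were called here, so neither share carries over to the calls of this report. Figures used matplotlib 3.10.9 in Python 3.11.15.

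The 9 genes and the lists of further genes were chosen with earlier results of these data known. Of the lists, NFE2L2, KEAP1, BACH1 and in each list the 2 largest rises and 2 largest falls past the threshold, among genes detected on at least 8 arrays, were named. For likeness, the 2 genes with the highest Pearson r were named, among probes detected on all 16 arrays. The alternatives were median scaling, cyclic loess, an offset of 50, uncorrected background, array weights, no filter or one asking for detection on every array, the set of 4 arrays as a factor, a step between 21 and 24 h, a straight line, a spline, any probe of a gene, and each array left out.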

Additional observations from a re-analysis of the deposited data

How the results depend on the processing

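Of 388 recomputed values of the counts and of the 9 genes' linear changes, 347 had the direction and the call given above or, for counts, differed from them by 1.5 times at most. The set of 4 arrays as a factor left 145 probes, 0 of the 9 genes and 2 genes of the further lists with a linear trend. In this fit HMOX1 (-0.13), GCLC (-0.92), the dimmer NQO1 probe (0.058), BACH1 (1.17) and TXN (0.42) changed sign, none past the threshold, and TALDO1 (0.40) and TXNRD1 (-0.28) were no longer past it. Only differences within 9 h enter that fit. The step between 21 and 24 h left 3092 of 16110 probes, 1 of the 9 genes (TKT, -0.68) and 25 genes of the lists with a linear trend. It left 6105 probes and 1 of the 9 genes time-dependent. Under it HMOX1 (0.66) and TXNRD1 (-0.44) were no longer past the threshold, and SRXN1 (0.31), TALDO1 (-0.21), the dimmer NQO1 (0.44) and TXNRD1 (0.33) probes, GPX2 (-0.63) and SLC7A11 (0.28) changed sign, none past it. Step and time overlap in that fit, so its errors are wide. Median scaling left TALDO1 at 0.24, not past the threshold, and the brighter NQO1 probe at -0.098. Under it (adjusted p = 0.0325) and under cyclic loess (0.0486) that NQO1 probe was time-dependent. Cyclic loess gave GCLM -0.071 and brought SRXN1 past the threshold (-0.37), and array weights gave the brighter NQO1 probe -0.012, TKT 0.021 and PGD 0.25, the last past it. Where no value shows it, the cause of these changes was not tested.

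When single arrays were left out, the number of the 9 genes with a linear trend ranged from 3 to 5 (without the 9 h array). That of time-dependent genes ranged from 3 to 5, and that of genes of the lists with a linear trend from 45 to 52. Of all 16110 probes, 6851 to 7749 then had a linear trend and 7317 to 8368 were time-dependent. The linear changes ranged from -0.024 to 0.011 for the brighter NQO1 probe, -0.11 to 0.16 for GCLM, 0.28 to 0.77 for GCLC, -0.14 to 0.15 for TKT, 0.13 to 0.31 for PGD, -0.41 to -0.16 for SRXN1, 0.31 to 0.40 for TALDO1 and -0.38 to -0.27 for TXNRD1. No paired analysis was possible because no time was sampled more than once. Signals near the top of the scale limit NQO1, TALDO1 and FTL. They also limit other list genes, among them PRDX1 (92.6% to 99.8% of the array maximum), PRDX5 (up to 94.8%), GPX4 (up to 93.4%) and SOD1 (up to 89.4%), none with a linear trend past the threshold. Signals near the background limit GCLC, and among the named list genes GPX2 (0.343% to 0.699%) and SLC7A11 (0.263% to 0.560%) were also dim.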
